A study of Gallus gallus with 10 samples.

Results

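The SLC25 family of mitochondrial carriers was represented by 33 of the 13051 genes measured in whole brains of chicken embryos. Genes were taken as members where the current symbol of the platform gene identifier starts with SLC25A, and each was followed through its brightest probe set, the one with the highest mean over the 10 arrays. Of the members, 2 lie on the Z chromosome, SLC25A46 and SLC25A51, and 31 on autosomes. The study hybridised total RNA from dissected whole brain, with 5 male and 5 female samples and 1 Affymetrix array for each. Males are ZZ and females ZW in birds, so the sexes differ in their number of Z copies. The title of male replicate 1 carries no letter or sex, and its sex comes from its description. The sources used here do not give breed, embryonic age or the number of embryos behind a sample. Nothing says that samples are separate embryos, so p-values refer to variation among these arrays, some of which may be technical.

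Mitochondrial carriers are small membrane proteins built from repeated pairs of helices. Most sit in the inner mitochondrial membrane and swap nucleotides, amino acids, organic acids, phosphate or cofactors between the matrix and the cytosol. In brain they are known for exporting ATP, for moving aspartate and glutamate, and for supplying the matrix with cofactors such as NAD. These roles are known mainly from mammals.

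Levels are deposited intensity values, which the authors had scaled per array, and differences are male minus female on the log2(intensity + 16) scale with limma's standard error (SE). A gene is called expressed here where its mean log2 level is at least 9.33, the median of all tested probe sets. Probe sets of viral sequences, used as a measure of background, had a median log2 level of 6.16 and a 95th percentile of 7.62. Of the 33 members, 30 were expressed and 32 lay above that 95th percentile. By the same rule 9287 of all 13051 genes were expressed, each read through its brightest probe set. Probe sets differ in how brightly they report, so levels of different genes are not ranked as abundance. Of 9 measured neuron markers, 8 were expressed. Their summed intensity was 398196 to 476455 in males and 418234 to 450199 in females, and the ranges overlapped.

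SLC25A51, the Z-linked gene for the mitochondrial NAD carrier, gave overlapping readings in males and females. The male arrays read 14249, 13221, 14720, 14410 and 13292, against 12606, 14324, 14490, 14672 and 14113 in the female arrays. Female replicate 1 was the lowest array, and 1 male (replicate 3) exceeded all females. On the log2 scale males averaged 13.77 ± 0.07 for SLC25A51, against 13.78 ± 0.09 for females (SD, n = 5 per sex). The difference was -0.01 (SE 0.06, 95% interval -0.15 to 0.14, limma adjusted p = 0.99), with a sign that turns to 0.02 when arrays are centred on autosomal genes. As a male to female ratio the interval runs from 0.901 to 1.1. The gene had 1 probe set.

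SLC25A46 encodes an outer membrane relative of the carriers that takes part in mitochondrial fission and fusion. Its brighter probe set read 5385, 4362, 4331, 4458 and 4591 in males, against 3880, 2897, 4344, 4012 and 4241 in females. Of the 5 males, 4 exceeded all females, and male replicate 3 lay just under female replicate 3. The log2 mean was 12.18 ± 0.13 for males, against 11.91 ± 0.23 for females (SD, n = 5 per sex). The difference of 0.26 (SE 0.12, 95% interval -0.003 to 0.53) is a ratio of 1.2 and did not pass the threshold (limma adjusted p = 0.659). Without female replicate 2, the lowest array, it was 0.16. The other probe set of SLC25A46 read 3183, 3453, 2662, 2824 and 3081 in males, against 3111, 2801, 2282, 2455 and 2790 in females, a difference of 0.18 (SE 0.11) with overlapping sexes.

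**Figure D1:**
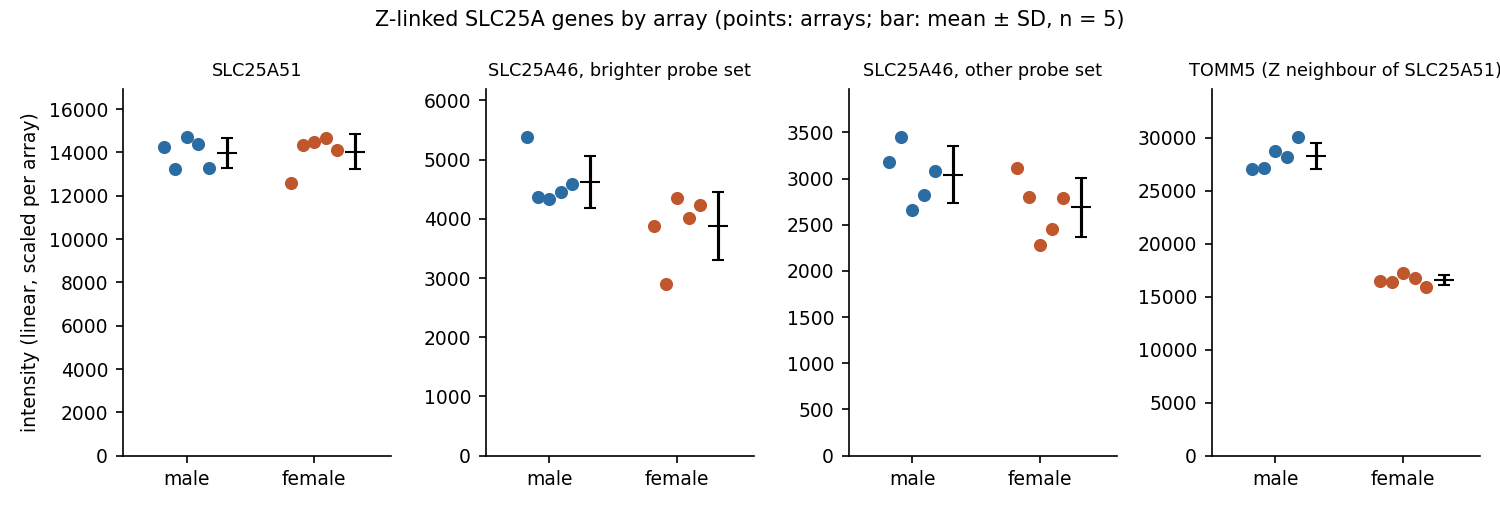
Intensity on a linear axis from 0 for SLC25A51, both probe sets of SLC25A46 and TOMM5, a Z gene close to SLC25A51 in gene order. Points are arrays, males left of females, and bars are means ± SD (n = 5 each). Male and female points overlap for both SLC25A genes, while all males of TOMM5 (27060 to 30074) lie above all females (15936 to 17272). Among the 10 measured neighbours of SLC25A51 described below, TOMM5 had the lowest limma adjusted p, and 4 of the 10 passed the threshold.

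Across the Z chromosome 82.3% of the 606 measured genes had a positive difference. Of all Z genes, 33.2% were higher in males past the limma threshold (Benjamini-Hochberg adjusted p under 0.05 over all genes), and 0 of the 2 members were. In 42.1% of Z genes, and in 0 of the 2 members, all males lay above all females. The median difference was 0.13 over the 2 Z members (ratio 1.09), against 0.40 over all Z genes (ratio 1.32). The whole interval of SLC25A51 lay under the median of the Z genes, whereas that of SLC25A46 included it. Over all Z genes, 103 (17%) had a lower difference than SLC25A51 and 216 (35.6%) a lower one than SLC25A46. Among the 445 expressed Z genes these were 30 (6.74%) and 116 (26.1%). Both members are expressed, and the shares over all Z genes include dim genes. The 445 expressed ones had a median difference of 0.47, and 92.6% were positive. Of them, 200 passed the limma threshold and 252 showed no overlap, each counted in either direction.

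Each Z member was set against the other 605 Z genes within every array, as its deviation from its own mean minus the median deviation of those genes. For SLC25A51 this value was -0.21, -0.35, -0.17, -0.20 and -0.30 in males, against 0.06, 0.26, 0.29, 0.29 and 0.23 in females. All 5 females lay above all 5 males, with a difference of -0.47 (exact permutation test over 252 arrangements, two-sided p = 0.00794, the smallest this design allows). After adjustment over the 2 genes compared, the exact permutation p was 0.0159. The difference of SLC25A51 between the sexes was smaller than that of the Z median. The median deviation of all Z genes itself separated the sexes, at 0.23 to 0.27 in males and -0.24 to -0.21 in females. Any gene with a small spread and a difference near 0 would give the same separation. The test therefore adds nothing beyond the difference of SLC25A51 itself. For SLC25A46 the value ran from -0.21 to 0.12 in males and from -0.31 to 0.28 in females, so the sexes overlapped. Its difference of -0.20 did not pass (exact permutation p = 0.151, two-sided). Without female replicate 2, its lowest array, it was -0.30, and with the mean over its probe sets -0.21 (exact permutation, adjusted p = 0.0317 and 0.0397). With any other single array left out the exact permutation adjusted p was 0.0794 to 0.286. The separation of the Z median between the sexes enters all these values. For SLC25A46 too, the test therefore adds nothing beyond its own difference. This comparison was added after the values were seen, and its p covers the spread between arrays, not which Z genes would give such a value.

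**Figure D2:**
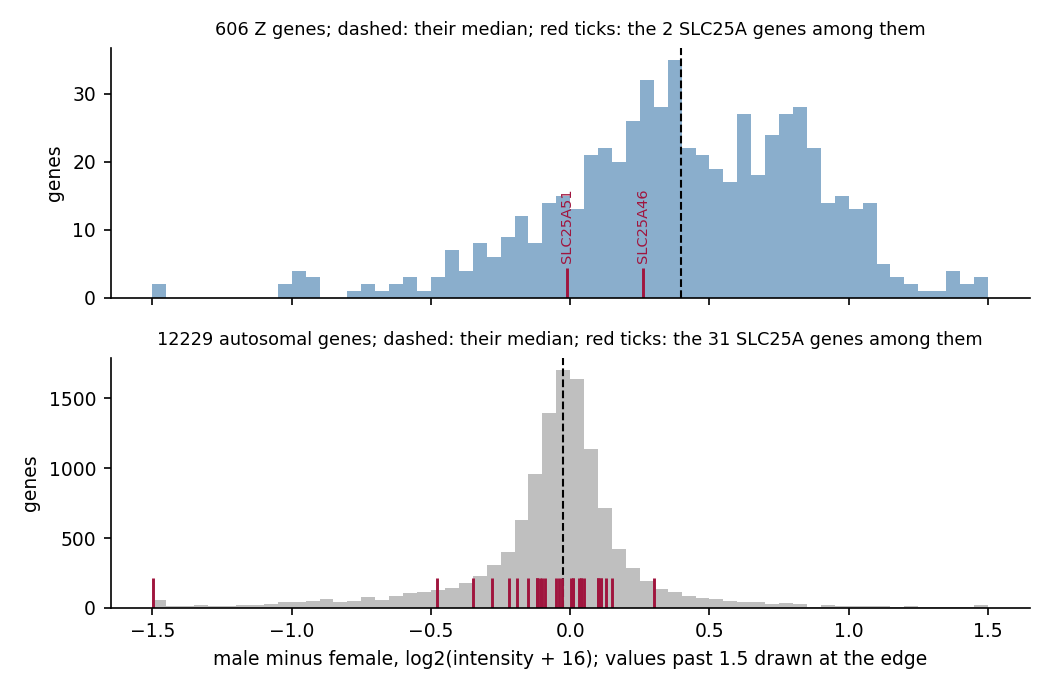
Histograms of the male minus female difference, in log2(intensity + 16), over 606 Z genes (top) and 12229 autosomal genes (bottom), with dashed lines at their medians of 0.40 and -0.03. Red ticks mark the SLC25A genes. SLC25A51 stands near 0, on the low side of the Z genes, SLC25A46 lies between it and the Z median, and the autosomal members gather around 0 apart from SLC25A10, drawn at the left edge.

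The genes next to each Z member on the chromosome give its local setting. The 5 measured genes on each side of SLC25A51, in the gene order of the reference table, had a median difference of 0.70, and 9 of the 10 were positive. In 4 of the 10 males were higher past the limma threshold, where 33.2% of all Z genes were. Among these was TOMM5, a subunit of the outer membrane import pore, at 0.77 (SE 0.05), and POLR1E, the next measured gene on the other side, at 0.83 (SE 0.07). The neighbour just before SLC25A51, DCAF10, differed by 0.31 (SE 0.16) and did not pass. PAX5 was the 1 neighbour with a lower value than SLC25A51, at -0.70 (SE 0.49), and its level of 8.69 is under the expressed level. Of the 10 neighbours 6 were expressed, and PRDM6, CEP120 and ZBTB5, all with positive differences, lay under that level too. Around SLC25A46 the 10 neighbours were all positive, with a median of 0.31 and a range of 0.02 to 1.08. There 2 of the 10 passed the threshold, against the same 33.2%, STARD4 at 0.82 (SE 0.09) and WDR36 at 1.08 (SE 0.15), and 4 of the 10 had a lower difference than SLC25A46.

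**Figure D3:**
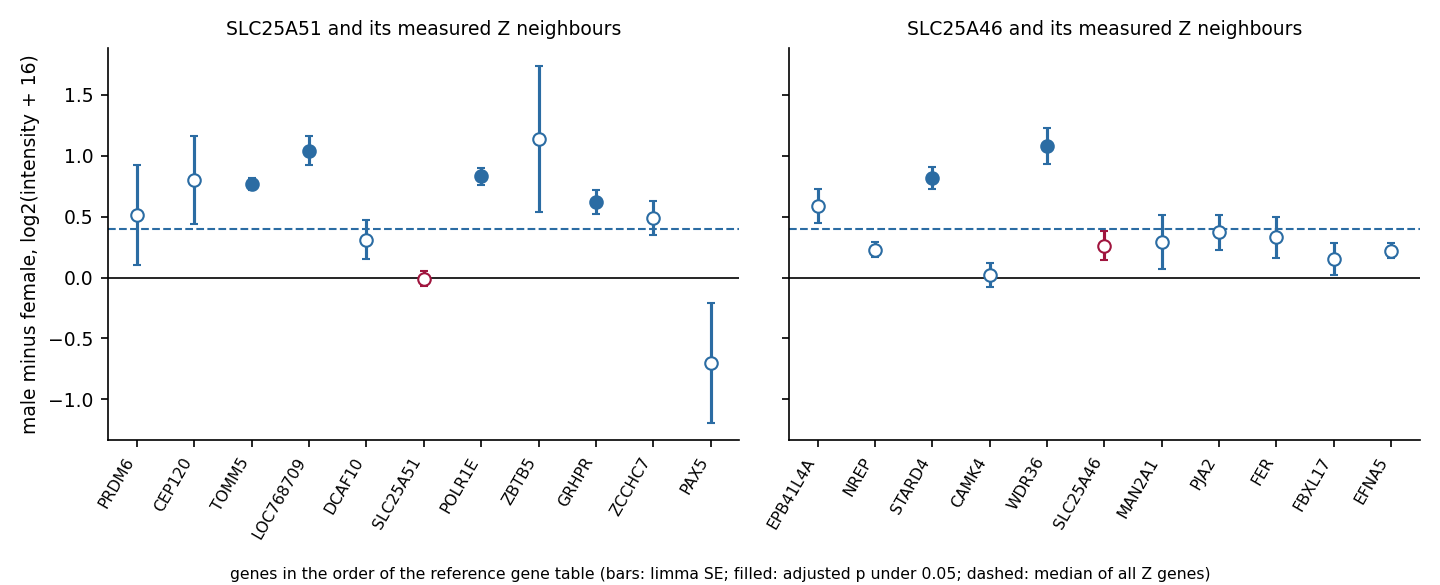
Male minus female difference, in log2(intensity + 16) with limma's SE, for SLC25A51 and SLC25A46 (red) and the 5 measured Z genes on each side (blue), in gene order. Filled points passed the limma threshold and the dashed line is the median of all Z genes, 0.40. SLC25A51 sits at -0.01 between neighbours that mostly lie above the dashed line, and SLC25A46 sits among neighbours between 0.02 and 1.08.

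The autosomal carriers showed no sex difference past the threshold. By limma 0 of 31 passed, where 0.147% of all autosomal genes and 1.79% of all genes did. At an unadjusted p under 0.05 there were 4 of 31 (12.9%), against 5.08% of all autosomal genes, and all 4 had a negative difference, namely SLC25A10, SLC25A16, SLC25A37 and SLC25A47. This count depends on the fit. In the limma fit over all probe sets, the same probe sets of SLC25A16 and SLC25A37 had an unadjusted p of 0.06048 and 0.06226. The sexes overlapped in all 31, where 0.85% of autosomal genes showed no overlap in either direction. The median difference was -0.03, the same as the -0.03 of all autosomal genes. A positive difference was measured in 15 of the 31 (48.4%), against 42.7% of all autosomal genes. The 95% interval of 27 of the 31 ended below 0.40, the median of the Z genes, and that of 23 lay wholly between -0.5 and 0.5.

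**Figure D4:**
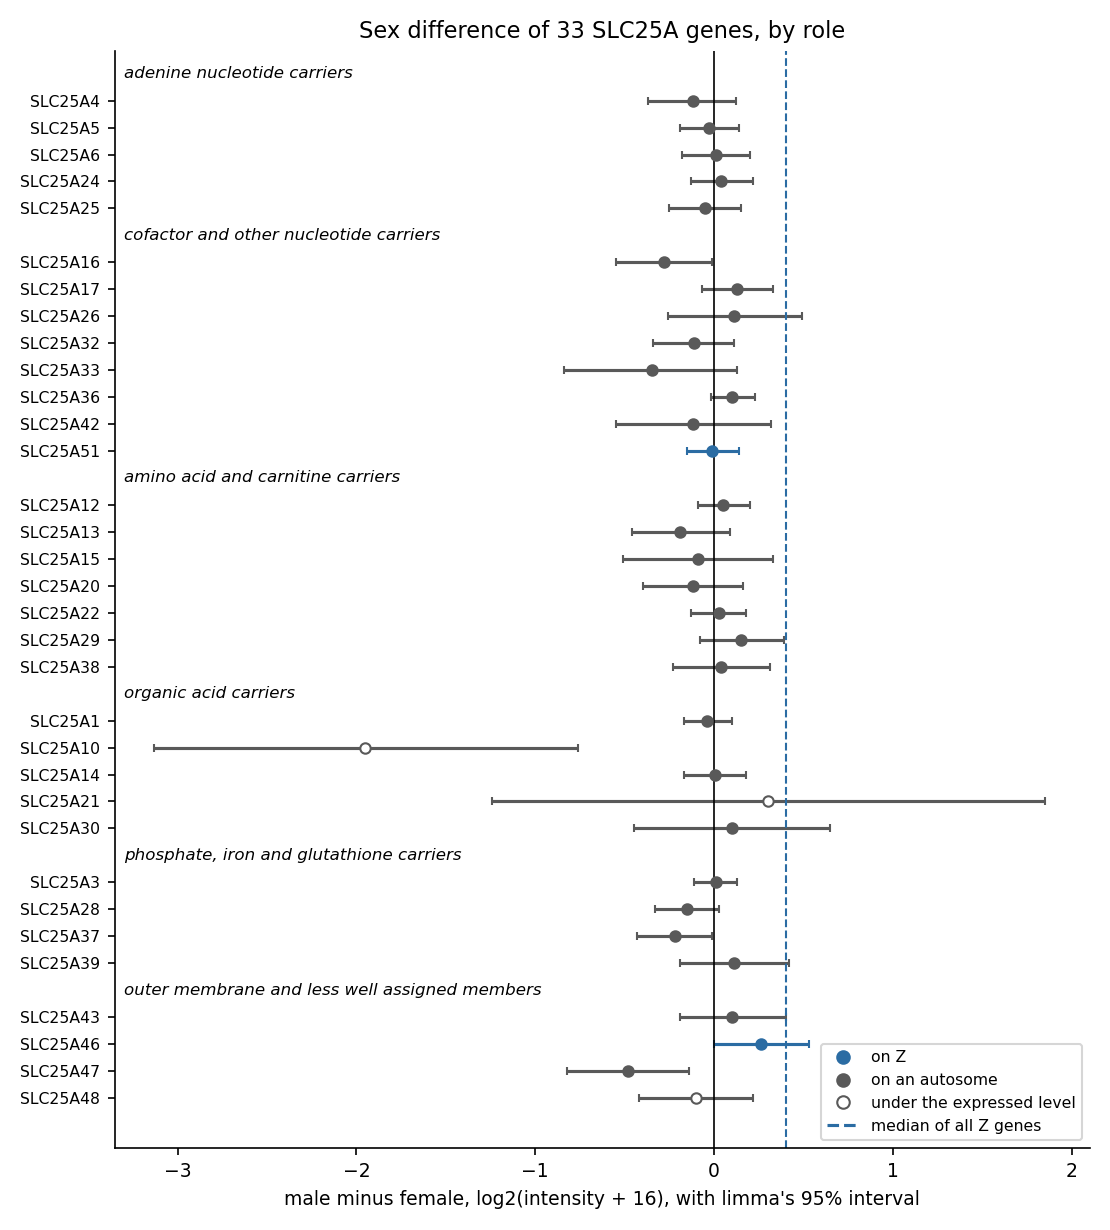
Male minus female difference of the 33 SLC25A genes, in log2(intensity + 16), with limma's 95% interval, grouped by role. Z members are blue, autosomal members grey, open points are genes under the expressed level, and the dashed line is the Z median of 0.40. Most intervals include 0, and the widest belong to SLC25A10 and SLC25A21.

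Among the carriers of adenine nucleotides, 0 of 5 passed the threshold and differences ran from -0.12 for SLC25A4 to 0.04 for SLC25A24. The ADP/ATP carriers SLC25A4, SLC25A5 and SLC25A6 bring ADP into the matrix and release ATP. SLC25A6 read 99684, 129746, 122887, 131609 and 113266 in males, against 118823, 115837, 118610, 122918 and 113640 in females. Males spanned a wider range than females, male replicate 1 was lowest, and the difference was 0.01 (SE 0.08). SLC25A5 read 45179 to 56777 in males and 48957 to 55416 in females, a difference of -0.03 (SE 0.07). For SLC25A4, the form known from muscle, the arrays ran from 2937 to 4107 in males and from 3494 to 4549 in females (difference -0.12, SE 0.11). Its other probe sets lay under the expressed level, at 8.44 (difference -0.66, SE 0.31) and 7.42 (difference -0.25, SE 0.75). SLC25A4 thus counts as expressed through its brightest probe set alone. These 3 genes are close in sequence, and how far their probe sets read each other was not tested. The calcium-regulated ATP-Mg/phosphate carriers SLC25A24 and SLC25A25 differed by 0.04 (SE 0.08) and -0.05 (SE 0.09).

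Carriers of cofactors and other nucleotides, SLC25A51 among them, numbered 8, of which 0 passed. SLC25A36 and SLC25A33, both carriers of pyrimidine nucleotides, had differences of opposite sign in their brightest probe sets, and neither passed. SLC25A36 read 16564 to 17658 in males and 14772 to 16935 in females (difference 0.10, SE 0.06), and all 5 males lay above the female median. SLC25A33 read 975, 926, 1352, 757 and 1144 in males, against 1588, 1585, 1465, 805 and 1236 in females. Of the females, replicates 1, 2 and 3 exceeded all males, while female replicate 4 was among the lowest, and the difference was -0.35 (SE 0.22, limma adjusted p = 0.81). SLC25A16, linked to coenzyme A supply, read 3394 to 4240 in males and 3537 to 5576 in females, with 4 females above all males (difference -0.28, SE 0.12, limma adjusted p = 0.633). The coenzyme A carrier SLC25A42 differed by -0.12 (SE 0.19) and the peroxisomal SLC25A17, which moves coenzyme A and related cofactors, by 0.13 (SE 0.09). The other probe set of SLC25A17, at a level of 12.69, differed by -0.08 (SE 0.09). The folate and flavin carrier SLC25A32 (-0.11, SE 0.10) and the S-adenosylmethionine carrier SLC25A26 (0.11, SE 0.17) did not pass either. The other expressed probe sets of SLC25A32 differed by -0.05 (SE 0.11), 0.33 (SE 0.16) and 0.11 (SE 0.11). In SLC25A26 the males read 869 to 986 and the females 547 to 1056, so the spread was mostly in females.

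The amino acid and carnitine carriers were 7, with 0 past the threshold and differences from -0.19 to 0.15. SLC25A12 and SLC25A13, the aspartate/glutamate carriers of the malate-aspartate shuttle, differed by 0.05 (SE 0.07) and -0.19 (SE 0.12). SLC25A12 read 12694 to 13744 in males and 11449 to 14081 in females. SLC25A13 read 18387 to 25590 in males and 19766 to 28694 in females, and 3 females exceeded all males. The glutamate carrier SLC25A22 read 28242, 32979, 29970, 28636 and 30716 in males, against 28844, 28957, 32744, 29541 and 27846 in females. Its sexes covered nearly the same range (difference 0.03, SE 0.07, 95% interval -0.13 to 0.18). The carnitine/acylcarnitine carrier SLC25A20 differed by -0.12 (SE 0.12), the ornithine carrier SLC25A15 by -0.09 (SE 0.19), and SLC25A38, a glycine carrier of heme synthesis, by 0.04 (SE 0.12). The basic amino acid carrier SLC25A29 differed by 0.15 (SE 0.11), with 2 males above all females, and by 0.07 without female replicate 3, its lowest array.

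Among 5 organic acid carriers and their relatives, 0 passed, and 2 of them were dim. SLC25A10, the dicarboxylate carrier, had the most negative difference of the family. It read 140, 58.7, 137, 27.2 and 272 in males, against 520, 372, 906, 231 and 380 in females. Of the females, 4 exceeded all males, and female replicate 4 lay under male replicate 5. The difference was -1.95 (SE 0.53, 95% interval -3.13 to -0.76, limma adjusted p = 0.182). The male mean of 6.87 ± 1.06 lay under the 95th percentile of the virus probe sets and the female mean of 8.82 ± 0.70 above it (SD, n = 5 per sex), so the size rests on values near background. Taken array by array, the 95th percentile of the virus probe sets was 7.69 to 8.73, and all males and female replicate 4 lay under that of their own array. The virus probe sets themselves had a median difference of -0.18. Without male replicate 4 the difference of SLC25A10 was -1.59, and without male replicate 5 it was -2.27. SLC25A21, the oxoadipate carrier, was the 1 member with a mean level under 7.62, the 95th percentile over all arrays. Its difference of 0.30 (SE 0.69) has an interval of -1.24 to 1.85.

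The citrate carrier SLC25A1 read 10307 to 11350 in males and 10230 to 11703 in females (difference -0.04, SE 0.06). SLC25A14, a relative of the uncoupling proteins described in brain, read 14488 to 16448 in males and 13306 to 16718 in females, and its difference of 0.004 (SE 0.08) has a sign that turns with the normalization. Its relative SLC25A30 differed by 0.10 (SE 0.24). All 3 were expressed.

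Of the 4 carriers of phosphate, iron and glutathione, 0 passed. SLC25A3, which brings phosphate for ATP synthesis into the matrix, had the narrowest spread of the males of any member. It read 52153, 52847, 53773, 53149 and 50531 in males, against 49008, 55756, 52806, 51838 and 51647 in females. The difference was 0.01 (SE 0.05, 95% interval -0.11 to 0.13). The mitoferrins, which carry iron, both had negative differences in their brightest probe sets, and neither passed. SLC25A37, known from red cell precursors, read 1354, 1119, 1316, 1324 and 1373 in males, against 1709, 1360, 1697, 1479 and 1358 in females, with 3 females above all males (difference -0.22, SE 0.09, limma adjusted p = 0.609). SLC25A28 read 2768 to 3109 in males and 2851 to 3667 in females (difference -0.15, SE 0.08). Its other probe set, at a level of 11.23, differed by 0.03 (SE 0.11). SLC25A39, known for glutathione import, differed by 0.11 (SE 0.14).

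Red cell markers were read beside these iron carriers. All 8 measured of 15 listed were expressed, with summed intensities of 95913 to 109930 in males and 103097 to 114372 in females. Of the 8, 0 passed the threshold, with a median difference of -0.12. Their part in the values of SLC25A37 was not tested. In whole tissue, fewer cells of a type and less RNA per cell cannot be told apart. Muscle markers, relevant to SLC25A4, were mostly dim, with 4 of 12 measured expressed and summed intensities of 4662 to 5391 in males and 4371 to 7385 in females.

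SLC25A47, an autosomal member described mainly in liver, had the most negative difference of the expressed members. It read 722, 616, 828, 493 and 876 in males, against 994, 934, 1075, 1001 and 863 in females. Of the females, 4 exceeded all males, and female replicate 5 lay just under male replicate 5. The difference was -0.48 (SE 0.15, 95% interval -0.82 to -0.14) and did not pass (limma adjusted p = 0.324). Its 1 probe set averaged 9.71, close above the expressed level. SLC25A43 differed by 0.10 (SE 0.13), with 3 males above all females, and SLC25A48, linked to choline transport, by -0.10 (SE 0.14) at a level of 8.40, below the expressed level.

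The 33 members were covered by 71 probe sets, of which 0 passed over all probe sets by limma, where 0.799% of all did, and 2 had an unadjusted p under 0.05. These were the single probe sets of SLC25A10 and SLC25A47. The 23 genes with several probe sets had up to 6 each, and in 10 of them the probe sets carried both signs. A gene's probe sets could report very different intensities. The brighter one of SLC25A3 averaged 15.68 and its other one lay under the expressed level, with readings of 177 to 515 in males and 21.5 to 505 in females and a difference of 0.91 (SE 0.70). In SLC25A13 the 3 probe sets differed by -0.19, -0.02 and 0.21. Of the 71, 20 lay under the expressed level. The SE of members ran from 0.05 for SLC25A3 to 0.69 for SLC25A21.

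**Figure D5:**
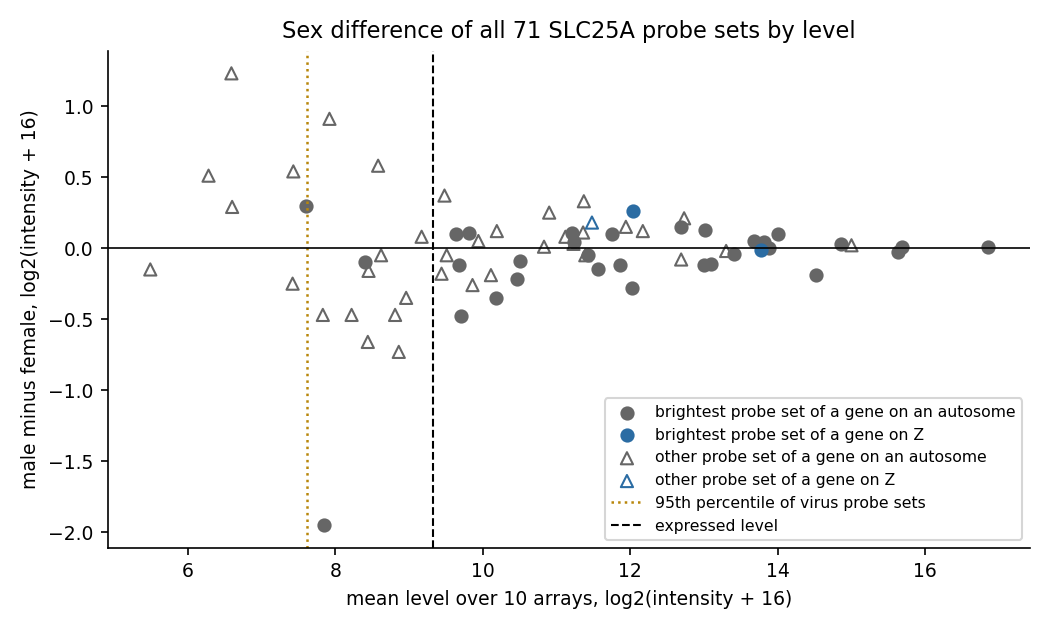
Male minus female difference against mean level, both in log2(intensity + 16), for the 71 probe sets of the 33 SLC25A genes. Filled circles are the probe sets that represent a gene, open triangles the others, blue marks Z members, and lines mark the 95th percentile of virus probe sets (7.62) and the expressed level (9.33). Differences scatter widely at low levels and lie close to 0 at high levels.

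Genes that work beside the carriers were taken from 10 lists, with 75 measured genes of 99 listed. By limma 3 of the 75 passed, all of them on Z and higher in males, and the remaining 72 did not. The lists hold 7 Z genes in all, and 3 of 7 is near the 33.2% of all Z genes that were higher in males. TOMM5 was described above with the neighbours of SLC25A51. In the list of NAD and NADP supply, the field in which SLC25A51 works, 3 of 8 measured genes lie on Z. The differences of the 8 ran from -1.03 to 0.89 with a median of 0.13, and the 5 genes not on Z had a median of 0.03 and 0 past the threshold. The -1.03 belongs to a gene not on Z and was the lowest difference of all 75 measured partner genes. NMRK1, a kinase that makes an NAD precursor, read 2699, 2642, 1854, 1975 and 2129 in males, against 1537, 1117, 935, 1085 and 1399 in females. All males exceeded all females (difference 0.89, SE 0.16, limma adjusted p = 0.0231). NNT, a transhydrogenase of the inner mitochondrial membrane, read 8205 to 10400 in males and 5957 to 7561 in females, again without overlap (difference 0.49, SE 0.10, limma adjusted p = 0.044). NADK2, the mitochondrial NAD kinase, overlapped and differed by 0.14 (SE 0.12).

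The other Z genes of these lists did not pass. FECH, the last enzyme of heme synthesis, differed by 0.52 (SE 0.18), GLDC of the glycine cleavage system by 0.24 (SE 0.10) and ISCA1 of iron-sulfur assembly by 0.10 (SE 0.05), the last with all males above all females. The list of import factors on the path of carriers through the outer and into the inner membrane had 13 measured genes with 1 past the threshold, TOMM5, and a median of -0.01. The 4 enzymes of the malate-aspartate shuttle had a median of -0.03 and a range of -0.14 to 0.02. Genes of mitochondrial shape, the field of SLC25A46, numbered 13, with 0 past the threshold and a median of 0.01. The calcium uptake (7), one-carbon (8), heme and iron-sulfur (9), fatty acid entry (5) and channel (5) lists had 0 past the threshold, and the same held for the 3 measured family relatives under other symbols, which differed by 0.02 to 0.19.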

How the data were processed

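The authors deposited 1 linear intensity for each of 38535 probe sets on each of 10 arrays. Their summary method and software: not given in the sources used here. From the values, the mean after trimming 2% at each end was 2500 on every array, so the deposited intensity values had been scaled per array. No detection calls were used, and the number of arrays limits the precision.

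Values were taken as log2(intensity + 16), which understates fold changes of dim genes, without further normalization or filter, and 96 control probe sets were left out. Of 13051 genes, 12872 were matched by identifier and 1 by accession to a RefSeq gene table of assembly bGalGal1.mat.broiler.GRCg7b and 178 kept the platform's name. The table served for symbols, chromosomes and gene order, and no coordinates are given here. The test was limma's moderated test (version 3.58.1, lmFit and eBayes, under R 4.3.3) over all genes, or all 38439 probe sets, with Benjamini-Hochberg adjustment and a threshold of 0.05. The code was also run on simulated data with independent noise for each gene and array. Such data hold no links between arrays or probe sets, so that run does not test the fit for these arrays.

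Members and gene lists were chosen with earlier results of these data known. Genes named by rule were all Z members, a list of carriers of well described role, the 3 most positive and 3 most negative autosomal differences, the 3 brightest and 3 dimmest members, and partner genes on Z or past the threshold. The remaining members were added, after their values were seen, to complete each role. Other genes of that list, such as SLC25A11, SLC25A18, SLC25A27 and SLC25A40, have no values here, as no gene among the 13051 carried these symbols. Probe sets with several symbols (177) or none (11094) were not assigned to a gene, and whether any of them read these carriers was not tested. Title letters B to E occur in both sexes. Correlations of same-letter arrays' deviations ran from 0.003 to 0.132, which does not settle whether they are pairs. The main fit did not treat them as pairs. Alternatives covered normalization, centring, pseudocounts (1 and 64), a filter on dim genes, probe set choice, variance model, array weights, a letter block and leaving out each array.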

Additional observations from a re-analysis of the deposited data

Results flagged for a closer look

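In 66 groups of 5 arrays (33 genes, both sexes), 6 held an array whose log2 level stood far from the other 4 in units of the group's range, where chance gives about 1 in 20. For SLC25A46, male replicate 1 stood at 12.40 (other males 12.09 to 12.17) and female replicate 2 at 11.51 (other females 11.93 to 12.09). For SLC25A51, female replicate 1 stood at 13.62, with the other females at 13.79 to 13.84. For SLC25A14, male replicate 2 stood at 14.01, with the other males at 13.82 to 13.86. For SLC25A28, male replicate 4 stood at 11.61, with the other males at 11.44 to 11.49. For SLC25A37, male replicate 2 stood at 10.15, with the other males at 10.38 to 10.44. Male replicate 2 stood apart for both SLC25A14 and SLC25A37, above the others in the one and below them in the other.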

How the results depend on the processing

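Under the 20 alternatives 0 of the members tested passed the limma threshold. The filter on dim genes left out the 3 members under the expressed level. Leaving out probe sets with names ending in _s_at, _x_at or _a_at left out SLC25A5, SLC25A12 and SLC25A17. The median difference of the Z members ran from 0.08 to 0.16 under these alternatives, against 0.13 as reported. That of the autosomal members ran from -0.05 to 0.01, against -0.03. The difference of SLC25A51 against the median of the other Z genes ran from -0.51 to -0.45 when single arrays were left out. SLC25A46 against that median ran from -0.30 to -0.15 when single arrays were left out and was -0.21 with the mean over probe sets. Its exact permutation p, which builds in the separation of the Z median, passed only without female replicate 2 and with that mean. By limma the adjusted p of SLC25A46 was 0.496 to 0.893 when single arrays were left out and 0.506 with that mean. The sign changed under at least 1 alternative for 17 members, and the cause was not tested. After quantile normalization SLC25A14 was at -0.01 and SLC25A48 at 0.04, and after centring SLC25A51 at 0.02. Without probe sets of those name endings SLC25A13 was at 0.21, SLC25A36 at -0.16 and SLC25A39 at -0.05. With the mean over probe sets SLC25A1 was at 0.04, SLC25A13 at 0.002, SLC25A39 at -0.04 and SLC25A42 at 0.35. With the replicate block on letters B to E (4 arrays a sex), SLC25A3 was at -0.01, SLC25A15 at 0.07, SLC25A21 at -0.09, SLC25A38 at -0.02 and SLC25A42 at 0.09. That fit called 1 of all genes, where the same 8 arrays without the block gave 160 and all arrays 234. For letters D and E the highest correlation with an array of another letter exceeded that with the same letter. Leaving out single arrays gave ranges across 0 of -0.01 to 0.03 for SLC25A3, -0.07 to 0.01 for SLC25A5, -0.03 to 0.07 for SLC25A6, -0.04 to 0.04 for SLC25A14, -0.16 to 0.03 for SLC25A15, -0.01 to 0.65 for SLC25A21, -0.01 to 0.06 for SLC25A22, -0.04 to 0.19 for SLC25A26, -0.05 to 0.24 for SLC25A30, -0.01 to 0.11 for SLC25A38, -0.21 to 0.03 for SLC25A42 and -0.04 to 0.01 for SLC25A51. The members under the expressed level, SLC25A10, SLC25A21 and SLC25A48, had mean levels of 7.85, 7.60 and 8.40. By array, the 95th percentile of the virus probe sets was 7.69 to 8.73. Values this close to background limit what the differences of these members show.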
